A study of Mus musculus with 21 samples.

Results

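RNA of 47 genes of the actin, tropomyosin and myosin cytoskeleton was followed in sorted endothelial cells of the adult mouse brain. The genes were taken by name from a table of 24206 uniquely named genes, and all 47 were found. A gene entered the tests of an experiment where its mean over that experiment's libraries was at least 1 RPKM, a read number corrected for the length of the gene and the size of the library. This left 45 genes in the stroke experiment and 46 in the beta-catenin experiment. Below that limit were Tpm2 and Zyx in the stroke experiment, with means of 0.295 and 0.631 RPKM, and Pdlim1 in the beta-catenin experiment, with 0.247. The lowest means above it were 2.05 RPKM for Tln1 and 3.51 RPKM for Tubb6, respectively.

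The stroke experiment had 4 groups of 4 libraries. Each library came from C57BL/6 mice aged 12 to 20 weeks whose middle cerebral artery had been occluded for 1 h and reperfused for 1 d. WT-NS and WT-ST came from the non-stroke and the stroke hemisphere of Gpr124 flox/+; ROSA-CreER+ mice, and Cko-NS and Cko-ST from the corresponding hemispheres of Gpr124 flox/-; ROSA-CreER+ mice. Gpr124 is an adhesion receptor of brain endothelium that works in Wnt signalling. The control mice therefore carried a floxed Gpr124 allele and the Cre driver too, which is not restricted to endothelium, and the non-stroke hemisphere belonged to an operated brain. The beta-catenin experiment had 3 libraries of Ctnnb1 lox(ex3)/+; Cdh5-CreER+ mice (Bcat) and 2 of Ctnnb1 +/+; Cdh5-CreER+ mice (control), without stroke and of the same strain and age. The floxed exon 3 encodes the part of beta-catenin that marks it for degradation, and Cdh5 drives the Cre in endothelium. All cells were sorted as live CD45-, CD31+ and PDGFRb- cells. The stroke libraries counted 3' ends of polyadenylated RNA and the others were made from total RNA with other kits, so levels were not compared between the experiments.

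Actin filaments grow from monomers that profilin and thymosins hold ready, branch at the Arp2/3 complex, are severed by cofilin, and are bundled by alpha-actinin and filamin. Non-muscle myosin II, a motor of heavy and light chains, pulls on filaments coated with tropomyosin, and talin, vinculin, zyxin and the ezrin, radixin and moesin family tie them to adhesions and the membrane. In brain endothelium this cortex anchors the junctions that seal the blood-brain barrier. Many of these genes are known targets of serum response factor (SRF), which binds a sequence called the CArG box.

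Relative depth, read from the steps between low values, ran from 1 to 4.16 times that of WT-NS 1 in the stroke experiment and from 0.527 to 1.29 times that of Bcat 1 in the other. All 12 endothelial markers were at 1 RPKM or more in all 21 libraries. Their sum was 1237 to 1508 RPKM in WT-NS, 1359 to 1892 in WT-ST, 1697 to 1956 in Cko-NS and 1486 to 1768 in Cko-ST. It was thus higher in every Cko-NS than in every WT-NS library. In Bcat it was 1979 to 2223 RPKM and in the control 2287 to 2482. Gpr124 averaged 4.49 RPKM in WT-NS, 4.99 in WT-ST, 2.76 in Cko-NS and 1.37 in Cko-ST, although 3' reads outside the deleted part would not show the deletion. The non-stroke ranges overlapped, 2.65 to 7.58 RPKM in WT-NS and 0.994 to 4.85 in Cko-NS, and the highest Cko-NS value, in Cko-NS 4, lay above 3 of the 4 WT-NS libraries. Libraries Cko-NS 4 and Cko-ST 3 went against their sex labels: Cko-NS 4, labelled female, held 1.48 RPKM of Xist and 189 of 4 Y-linked genes, whereas Cko-ST 3, labelled male, held 89.7 and 0.423. By RNA, Cko-NS 4 and Cko-ST 4 were the male libraries among the 16, so sex was not balanced between the genotypes. Markers of other cells were present at levels that moved with the groups. The 12 mural markers summed to 51.4 to 71.1 RPKM in WT-NS, 12.6 to 49.2 in WT-ST, 23.4 to 34.0 in Cko-NS and 15.9 to 108 in Cko-ST, mostly Rgs5, with Myh11 and Pdgfrb under 1 RPKM in every group mean. The 10 blood leukocyte markers summed to 3.97 to 13.5, 6.66 to 45.5, 11.2 to 89.0 and 11.3 to 26.5 RPKM in that order, and Ptprc, the gene of CD45, averaged 0.0279, 0.214, 2.48 and 0.388. Most of the Cko-NS mean of Ptprc came from 1 library, at 8.92 RPKM. Lcp1, of the same list, averaged 4.86, 4.13, 3.42 and 5.6 RPKM, lowest in Cko-NS. The 5 red cell markers averaged 8168, 4375, 12219 and 4877 RPKM and the 5 oligodendrocyte markers 461, 176, 233 and 110.3, both lower on the stroke side. The 11 microglia and macrophage markers averaged 51.9, 21.1, 37.8 and 20.8 RPKM, and the 6 neuron markers 21.6, 12.8, 23.2 and 6.54. The first of these sums held 76.7 RPKM of Aif1 in WT-NS 4. Cd68, a macrophage marker of that list, went the other way, with means of 0.771, 5.37, 2.53 and 3.36 RPKM in the same order. Astrocyte and fibroblast markers averaged at most 5.89 RPKM per list. The part of these markers in the results was not tested.

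In the control genotype, 29 of the 45 cytoskeleton genes rose on the stroke side and none fell, with 1 lower, Myl9, at an unadjusted p under 0.05. Among all 9838 genes tested, 8.46% rose and 4.84% fell (limma, adjusted p under 0.05). The median log2 fold change, on log2(RPKM + 1), was 0.74 over the 45 genes and 0.01 over all genes tested. In 29 genes all 4 WT-ST libraries lay above all 4 WT-NS libraries, and in 1, Myl9, all lay below, against 11.9% and 8.7% of all genes. In the Gpr124-deleted genotype, 23 of the 45 rose and 1 fell, against 6.44% and 8.71% of all genes and 15.2% in either direction. The median there was 0.54 over the 45 genes and -0.13 over all genes. Scaling by the median of ratios moved the median of all genes by 0.13 to -0.01 and that of the 45 genes to 0.70, turned the split of all calls from 634 higher and 857 lower to 868 and 601, and gave 25 rises. Quantile normalization gave 744 and 663, with 19 rises. In 21 genes all 4 Cko-ST libraries lay above all 4 Cko-NS libraries and in 2 below, against 7.4% and 11.4% of all genes. All 23 genes that rose in Cko were among the 29 that rose in WT, and the overlap over all genes was not computed. Without Cko-NS 4 and Cko-ST 3, 30 of the 45 genes rose in WT, against 909 of all 9794 tested. In Cko 24 rose and 1 fell in that fit, against 657 and 783 of all genes. Without Cko-NS 4 alone, 25 rose and 1 fell in Cko, against 609 and 718 of all 9772 genes tested. There, no cytoskeleton gene was called between Cko-NS and WT-NS, against 41 of all genes. Both of these fits kept Cko-ST 4, male by its RNA, so sex was not balanced between Cko-NS and Cko-ST in them. In RNA of sorted bulk cells, a larger share of one kind of endothelial cell and more RNA per cell cannot be told apart.

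**Figure D1:**
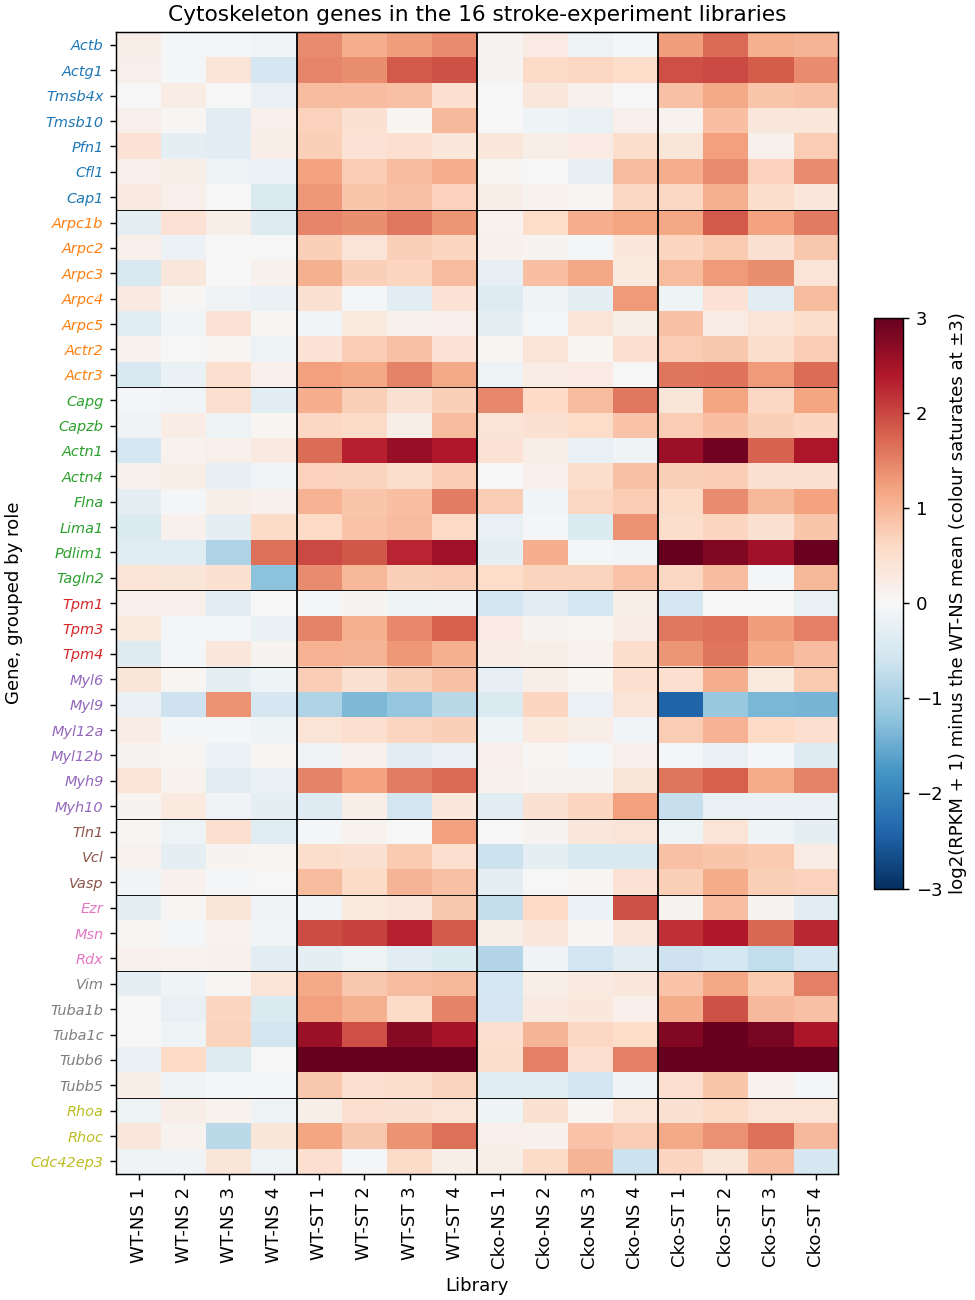
Level of 45 cytoskeleton genes (rows, label colour by role) in the 16 stroke-experiment libraries (columns), as log2(RPKM + 1) minus the mean of the 4 WT-NS libraries, with red above and blue below and the colour saturating at ±3. Most rows turn red in both stroke groups, with a median over genes of 0.72 to 0.93 in the WT-ST and 0.69 to 1.09 in the Cko-ST libraries, while Myl9 turns blue.

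The median over the 45 genes of the log2 difference from the WT-NS mean was between -0.08 and 0.04 in the WT-NS libraries and between 0.72 and 0.93 in the WT-ST libraries. It was between 0.02 and 0.39 in Cko-NS, highest in Cko-NS 4, and between 0.69 and 1.09 in Cko-ST, highest in Cko-ST 2. From 36 to 41 of the 45 genes lay above the WT-NS mean in each stroke-side library, against 17 to 26 in WT-NS and 23 to 36 in Cko-NS. The same difference over all genes stayed between -0.14 and 0.13 in all 16 libraries. Cko-NS 4 also had the highest leukocyte and neuron marker sums of its group, 89.0 and 49.7 RPKM, and their part in its level was not tested.

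Promoter windows of the RefSeq tables for GRCm38.p6, 250 bases before to 50 after each start, were searched on both strands for 2 motifs. The factors that bind these motifs are known to act on cytoskeletal genes. A window was found for 45 of the 47 genes, without Actb and Tubb6. The CArG box was present in 6 of the 45 (13.3%) and in 1.81% of 27025 genes with a window: Actg1, Arpc4, Lima1, Myl6, Myl9 and Vcl. The letters GGAATG, bound by TEAD factors, were present in 10 of the 45 (22.2%) and in 16.6% of all, and Vcl held both motifs. These matches describe the sequence and do not show binding. The list was chosen by gene name and holds known SRF targets, so its share of CArG boxes is no test of a link to the stroke response. Upstream stretches of Actg1 and Vcl, which rose on the stroke side in both genotypes, and of Myl9, which fell in Cko, are shown 5′ to 3′ on the strand of the gene, up to the start of the GENCODE gene model, with the CArG box in capitals. They lie at chr11:120348543-120348745 (minus strand), chr14:20929148-20929397 (plus strand) and chr2:156775214-156775419 (plus strand).
Actg1: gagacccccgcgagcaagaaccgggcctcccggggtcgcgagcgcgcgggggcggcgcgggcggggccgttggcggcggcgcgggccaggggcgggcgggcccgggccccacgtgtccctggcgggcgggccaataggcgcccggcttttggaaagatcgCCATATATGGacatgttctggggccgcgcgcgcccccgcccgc
Vcl: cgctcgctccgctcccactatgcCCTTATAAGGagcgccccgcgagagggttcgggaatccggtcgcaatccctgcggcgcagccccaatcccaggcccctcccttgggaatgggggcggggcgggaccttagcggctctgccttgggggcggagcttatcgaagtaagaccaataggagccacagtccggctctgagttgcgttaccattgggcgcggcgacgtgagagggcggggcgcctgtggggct
Myl9: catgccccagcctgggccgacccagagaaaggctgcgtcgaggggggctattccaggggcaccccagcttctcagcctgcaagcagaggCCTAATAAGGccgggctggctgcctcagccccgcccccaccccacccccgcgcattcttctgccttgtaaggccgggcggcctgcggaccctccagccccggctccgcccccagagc
The box begins 90 bases before the RefSeq start in Actg1, 227 in Vcl and 161 in Myl9. Of the other 3 genes with the motif, Myl6 rose in WT, and Arpc4 and Lima1 did not pass the threshold in either genotype.

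Of the actins and monomer-binding proteins, 5 of 7 rose in WT and 4 of 7 in Cko. Actb, the cytoplasmic beta-actin (GRCm38 chr5:142903115-142906754), stood at 8658, 7225, 7375 and 7163 RPKM in WT-NS and at 20284, 16092, 18198 and 20413 in WT-ST. In the deleted genotype it stood at 7964, 8967, 6822 and 7284 RPKM in Cko-NS and at 18192, 24639, 15862 and 15274 in Cko-ST. Stroke and non-stroke libraries did not overlap in either genotype. The log2 fold change was 1.30 (SE 0.15, adjusted p = 1.55e-05) in WT and 1.23 (SE 0.15, adjusted p = 2.94e-05) in Cko. Actb took 2.08 to 2.51% of all summed RPKM in WT-NS and 4.34 to 5.35% in WT-ST, and 1.76 to 2.51% in Cko-NS and 3.90 to 6.39% in Cko-ST. All 47 genes together took 3.58 to 4.64% on the non-stroke side and 7.02 to 10.2% on the stroke side. Since these libraries counted 3' ends, a share of the summed RPKM is not a share of transcripts. Under quantile normalization, which sets the top ranks of all libraries to the same values, the call was lost, with a log2 fold change of 0.88 (adjusted p = 0.0890) in WT and 0.47 (adjusted p = 0.390) in Cko.

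**Figure D2:**
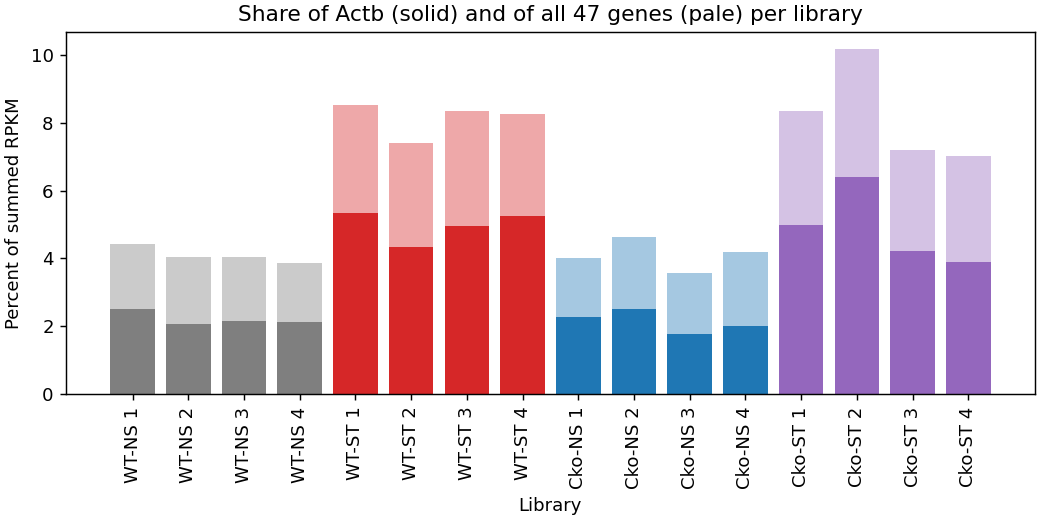
Percent of the summed RPKM of each stroke-experiment library (y axis) taken by Actb (solid bar) and by all 47 genes (pale bar), with the 16 libraries on the x axis coloured by group. Actb takes 1.76 to 2.51% in the 8 non-stroke libraries and 3.90 to 6.39% in the 8 stroke libraries, with no overlap.

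Actg1, the cytoplasmic gamma-actin (chr11:120345690-120348542), read 336, 296, 399.6 and 213 RPKM in WT-NS against 832, 805, 1081 and 1147 in WT-ST. In Cko-NS it read 319, 454, 464 and 441 RPKM against 1171, 1209, 1078 and 819 in Cko-ST. The stroke libraries lay well above the non-stroke libraries in each genotype, with no overlap. Log2 fold changes were 1.65 (SE 0.20, adjusted p = 2.14e-05) and 1.35 (SE 0.20, adjusted p = 0.000169). The ratio of Actb to Actg1 RPKM was 18.5 to 33.7 in WT-NS and 16.8 to 24.4 in WT-ST, and 14.7 to 25.0 and 14.7 to 20.4 in the Cko groups, so the ranges overlapped. With 3' ends counted, this ratio can be compared between libraries but does not give the relative amounts of the 2 transcripts. The coding sequences of both actins are nearly the same, and how the authors counted reads shared by both is not given in the sources used here.

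Tmsb4x, thymosin beta 4, a monomer-sequestering peptide, read 1654, 1924, 1641 and 1417 RPKM in WT-NS and 3145, 3119, 3029.9 and 2328 in WT-ST. In the other genotype the values were 1628, 2094, 1806 and 1637 RPKM in Cko-NS and 3028, 3614, 2957 and 3050.3 in Cko-ST. The groups did not overlap, and Tmsb4x rose by 0.81 (SE 0.14, adjusted p = 0.000667) and 0.82 (SE 0.14, adjusted p = 0.000514) on the log2 scale. Tmsb10, its paralogue thymosin beta 10, read 106, 97.6, 76.0 and 107 RPKM in WT-NS and 155, 132, 99.7 and 189.6 in WT-ST, and 95.3, 87.7, 81.7 and 107 in Cko-NS against 104, 180.4, 121 and 122 in Cko-ST. These groups overlapped in both genotypes and neither difference passed (adjusted p = 0.0872 and 0.130). Cfl1, cofilin, which severs filaments, rose from a mean of 384 to 772 RPKM in WT and from 459 to 868 in Cko. Cap1, which helps recycle monomers, rose from 40.0 to 76.8 RPKM in WT (adjusted p = 0.00590) and measured 47.3 and 62.8 in Cko (adjusted p = 0.223). Pfn1, profilin, measured 10.5 and 14.9 RPKM in WT and 13.0 and 16.9 in Cko and passed in neither.

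**Figure D3:**
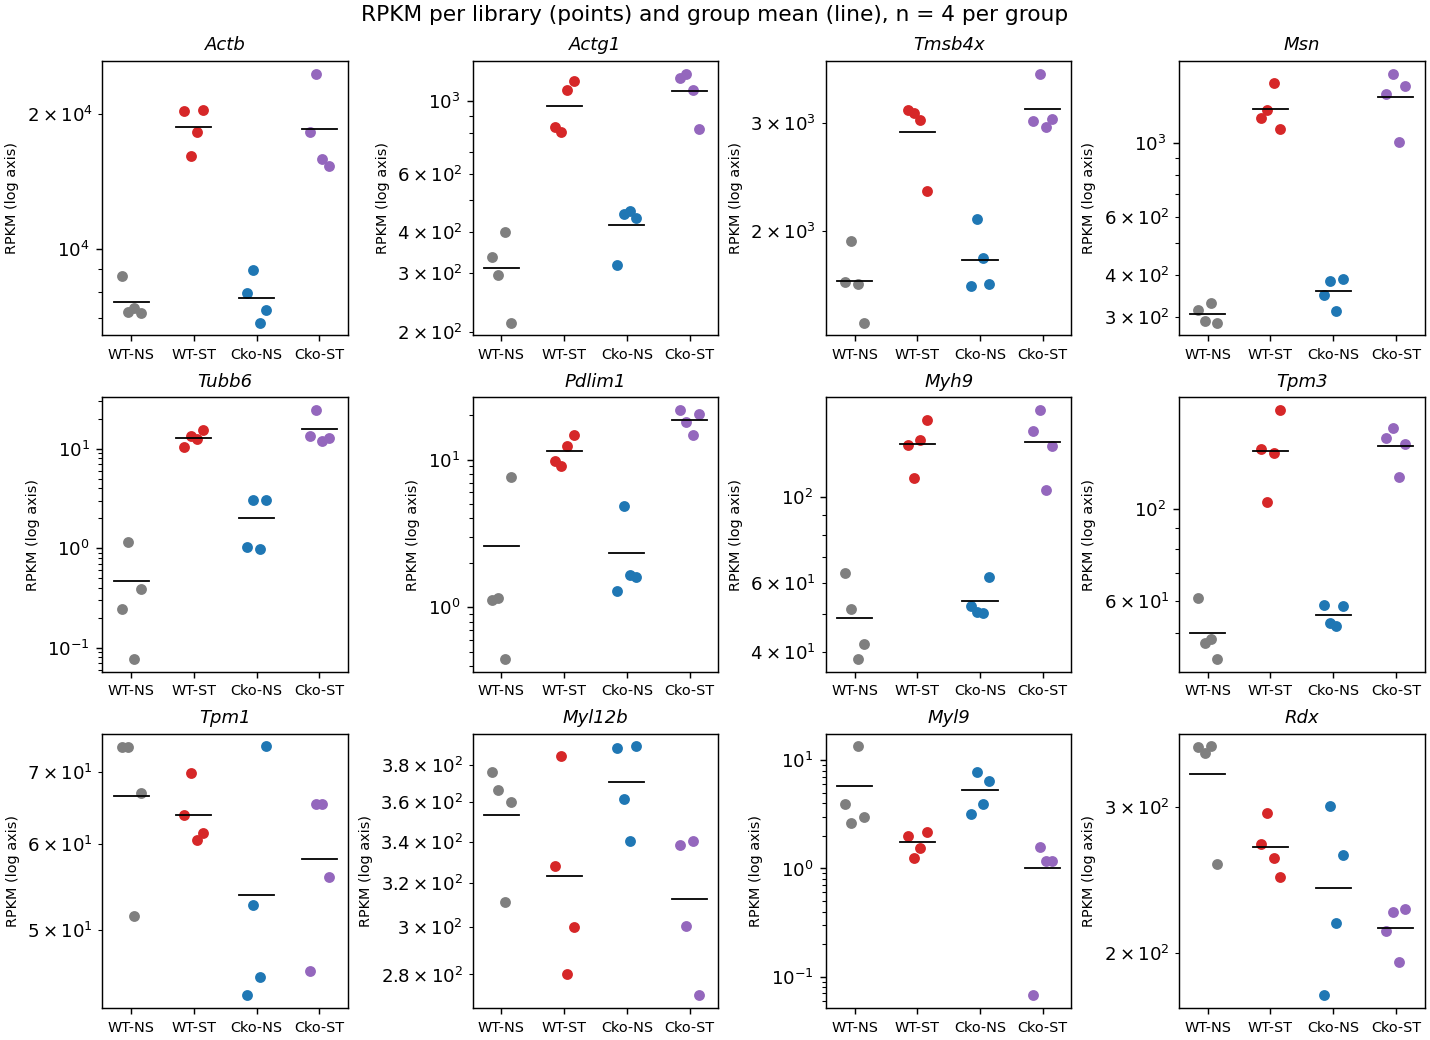
RPKM of 12 cytoskeleton genes in each of the 16 stroke-experiment libraries (points, log axis, own scale per gene) with the group mean as a line, 4 libraries per group. The stroke groups lie wholly above the non-stroke groups of the same genotype for Actb, Actg1, Tmsb4x, Msn, Tubb6, Pdlim1, Myh9 and Tpm3, and wholly below for Myl9.

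The Arp2/3 complex, which starts branches, had 4 of 7 members that rose in each genotype, Arpc1b, Arpc2, Actr2 and Actr3. Actr3, an actin-related core subunit, read 62.1, 74.7, 120.2 and 95.5 RPKM in WT-NS and 201, 192, 240.0 and 188 in WT-ST, and 76.2, 99.1, 102 and 85.9 in Cko-NS and 262, 269, 209.6 and 274 in Cko-ST. Every stroke library exceeded every non-stroke library, with log2 fold changes of 1.25 (SE 0.18, adjusted p = 0.000192) and 1.47 (SE 0.18, adjusted p = 4.30e-05). Arpc1b, a regulatory subunit, read 59.0, 96.6, 81.2 and 54.2 RPKM in WT-NS and 196, 188, 212 and 179.7 in WT-ST, a log2 fold change of 1.44 (SE 0.24, adjusted p = 0.000515). In Cko it read 76.3, 104, 152 and 162 RPKM in Cko-NS and 160.3, 258, 164 and 211 in Cko-ST, where the groups overlapped and the rise was 0.72 (SE 0.24, adjusted p = 0.0480). That second call was lost without any of Cko-NS 1, Cko-NS 2, Cko-ST 1, Cko-ST 2 or Cko-ST 4 (adjusted p = 0.152, 0.110, 0.0528, 0.150 and 0.0998). Arpc2 and Actr2 rose by 0.62 and 0.61 in WT and by 0.55 and 0.46 in Cko, and the Actr2 call in Cko was lost without any of Cko-NS 1, 2 or 3 or Cko-ST 1, 2 or 4 (adjusted p from 0.0508 to 0.120). Arpc5, a small subunit, read 32.2, 39.2, 57.3 and 42.7 RPKM in WT-NS, 39.3, 51.8, 46.1 and 47.1 in WT-ST, 34.2, 40.6, 55.4 and 47.8 in Cko-NS and 78.0, 49.1, 56.3 and 60.7 in Cko-ST, with overlap in both genotypes. Arpc3 measured 90.9 and 162 RPKM in WT (adjusted p = 0.0511) and 138 and 186 in Cko (adjusted p = 0.266), and Arpc4 measured 7.37 and 8.36 and then 9.26 and 9.38. Neither passed in either genotype.

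Among 8 capping, crosslinking and LIM proteins, 6 rose in WT and 2 in Cko. Actn1, alpha-actinin 1, which bundles filaments in stress fibres (chr12:80167547-80260371), read 10.0, 15.8, 16.5 and 17.9 RPKM in WT-NS and 49.3, 77.8, 94.5 and 81.9 in WT-ST. In Cko it read 20.2, 17.1, 12.5 and 13.6 RPKM and then 92.2, 115, 53.0 and 83.8. The groups stood far apart, and the log2 fold changes were 2.25 (SE 0.26, adjusted p = 1.70e-05) and 2.34 (SE 0.26, adjusted p = 1.41e-05). Pdlim1, a PDZ-LIM protein that binds alpha-actinin, read 1.12, 1.15, 0.445 and 7.65 RPKM in WT-NS and 9.77, 9.01, 12.3 and 14.7 in WT-ST, and 1.28, 4.83, 1.66 and 1.60 in Cko-NS against 21.7, 17.9, 14.7 and 20.3 in Cko-ST. It did not overlap in either genotype, and it rose by 2.16 (SE 0.44, adjusted p = 0.00260) and 2.65 (SE 0.44, adjusted p = 0.000475). With other pseudocounts, filters, scalings or libraries these values ran from 1.19 to 2.83 and from 1.70 to 3.13.

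Flna, filamin A, which links crossing filaments, read 1.87, 2.32, 2.86 and 2.77 RPKM in WT-NS and 6.09, 5.10, 5.40 and 8.91 in WT-ST, a log2 fold change of 1.08 (SE 0.28, adjusted p = 0.0138) that ran from 0.60 to 1.33 over the alternatives. In Cko it read 4.70, 2.26, 4.28 and 4.79 RPKM in Cko-NS and 4.07, 8.13, 5.85 and 6.96 in Cko-ST, where the groups overlapped and the difference did not pass (adjusted p = 0.206). Tagln2, transgelin 2, a calponin-family filament binder, read 78.9, 76.8, 81.6 and 24.7 RPKM in WT-NS and 159, 119, 98.1 and 100.1 in WT-ST, and 87.9, 94.9, 94.5 and 108 in Cko-NS against 91.6, 114, 58.1 and 119 in Cko-ST. The WT groups did not overlap and the Cko groups did. Its rise in WT was 0.97 (SE 0.31, adjusted p = 0.0488), and was lost without the low library WT-NS 4 (adjusted p = 0.135) or without any of the WT-ST libraries (adjusted p from 0.0641 to 0.135). Capzb, a barbed-end capper, and Actn4, alpha-actinin 4, rose by 0.58 (adjusted p = 0.0469) and 0.65 (adjusted p = 0.0315) in WT and measured 31.3 and 35.9 RPKM and 35.1 and 39.4 RPKM in Cko. The Capzb call was lost without any of WT-NS 1, 3 or 4 or WT-ST 1, 2 or 4 (adjusted p from 0.0769 to 0.140), and the Actn4 call without any of WT-NS 3 or 4 or WT-ST 1, 2 or 4 (adjusted p from 0.0653 to 0.0881). Capg, another capper, and Lima1, an actin-bundling LIM protein, passed in neither genotype.

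Of the tropomyosins, Tpm3 and Tpm4 rose in both genotypes and Tpm1 in neither. Tpm3 (chr3:90072649-90100902) read 60.8, 47.4, 48.3 and 43.2 RPKM in WT-NS and 140.1, 104, 137 and 175 in WT-ST, and 58.6, 52.8, 52.0 and 58.3 in Cko-NS and 149, 158, 119.6 and 144 in Cko-ST. All stroke libraries lay above all non-stroke libraries, with log2 fold changes of 1.45 (SE 0.17, adjusted p = 1.70e-05) and 1.34 (SE 0.17, adjusted p = 4.07e-05). Tpm4 read 59.5, 75.2, 98.5 and 83.0 RPKM in WT-NS and 161, 159, 193 and 164 in WT-ST, and 91.4, 87.7, 83.5 and 112 in Cko-NS and 197, 237, 169.8 and 149.6 in Cko-ST. Its rises were 1.11 (SE 0.18, adjusted p = 0.000413) and 0.99 (SE 0.18, adjusted p = 0.000947). Tpm1 averaged 66.5 and 63.9 RPKM in WT and 53.9 and 58.1 in Cko, with adjusted p of 0.913 and 0.700. The 95% intervals of its log2 difference were -0.44 to 0.35 and -0.27 to 0.52. Tpm2, the tropomyosin of smooth muscle, was too low to test, at 0 to 1.28 RPKM in the 16 libraries.

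Of 6 myosin II genes, 3 rose in WT, and 2 rose and 1 fell in Cko. The heavy chain Myh9 of non-muscle myosin IIA (chr15:77760587-77842175) read 63.7, 51.6, 38.3 and 41.8 RPKM in WT-NS and 136, 112, 141 and 158 in WT-ST, and 52.6, 50.6, 50.4 and 62.1 in Cko-NS and 148, 168, 104 and 136 in Cko-ST. The groups did not overlap, and Myh9 rose by 1.48 (SE 0.19, adjusted p = 3.92e-05) and 1.33 (SE 0.19, adjusted p = 0.000116). Myh10, the heavy chain of myosin IIB, averaged 2.63 and 2.46 RPKM in WT and 4.46 and 1.90 in Cko, and passed in neither (adjusted p = 0.882 and 0.0959), although without Cko-NS 1 it was called lower in Cko (-1.10, adjusted p = 0.0264). The ratio of Myh9 to Myh10 RPKM was 8.34 to 28.5 in the 8 non-stroke and 35.4 to 121 in the 8 stroke libraries. Like the actin ratio, it does not give relative amounts of transcripts, as 3' ends were counted. Of the light chains, Myl6 rose from 522 to 839 RPKM and Myl12a from 102 to 152 in WT. Those calls were lost without WT-NS 3, WT-NS 4, WT-ST 1 or WT-ST 4 for Myl6 (adjusted p from 0.0526 to 0.0702) and without WT-NS 4, WT-ST 3 or WT-ST 4 for Myl12a (adjusted p from 0.0548 to 0.0581). In Cko, Myl12a rose from 107 to 170.4 RPKM, whereas Myl6 measured 571 and 836 (adjusted p = 0.0643, or 0.0314 with the replicate number as a block). Myl12b, the nearest paralogue of Myl12a, averaged 354 and 323 RPKM in WT and 371 and 313 in Cko, with non-overlapping groups in Cko but no call (adjusted p = 0.568 and 0.225).

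Myl9, the regulatory light chain typical of smooth muscle and stress fibres, had values in the other direction. It read 3.91, 2.66, 13.5 and 2.97 RPKM in WT-NS and 2.01, 1.24, 1.55 and 2.18 in WT-ST, and 3.19, 7.80, 3.99 and 6.44 in Cko-NS and 0.0669, 1.60, 1.18 and 1.17 in Cko-ST. Each stroke library was below each non-stroke library of its genotype. The log2 difference was -1.06 (SE 0.41, adjusted p = 0.0972) in WT, which did not pass, and Myl9 fell by 1.68 in Cko (SE 0.41, adjusted p = 0.00961). The Cko value ran from -2.64 to -0.77 over the alternatives, with the pseudocount at either end. Read numbers can only be estimated, by taking 50 steps of the RPKM values as 1 read. Of 58 low values from a few low genes of the list, 46 lay within 2 steps of such a multiple (79.3%, where random values would give 10%). The 50 was picked from these same data, so that share is no independent check. The estimate puts Myl9 at 11 to 109 reads in the WT libraries and at 1, 20, 19 and 24.9 in Cko-ST. The mural marker sum was also lower in WT-ST than in WT-NS, and in Cko-ST it was lower than the Cko-NS range in 2 libraries, within it in 1 and above it in 1, Cko-ST 4, at 108 RPKM. Its part in the Myl9 values was not tested.

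**Figure D4:**
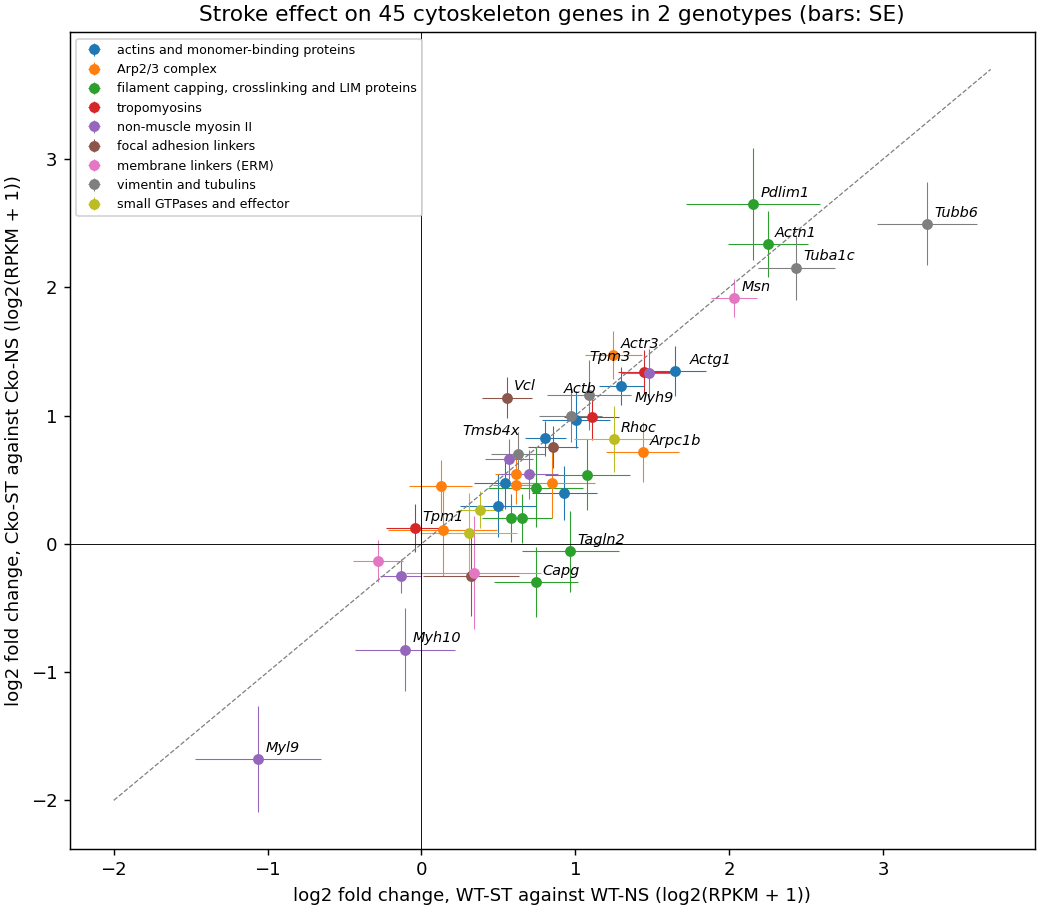
Log2 fold change between stroke and non-stroke hemisphere, on log2(RPKM + 1), of 45 cytoskeleton genes in WT (x axis) and in Cko (y axis), coloured by role, with SE bars and a dashed line of equal change. The comparisons use separate libraries, and most genes lie in the upper right, with Tubb6, Tuba1c, Actn1, Pdlim1 and Msn farthest out and Myl9 at the lower left.

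At focal adhesions, Vcl and Vasp rose in both genotypes. Vcl, vinculin (chr14:20929398-21033676), read 122, 93.8, 120.0 and 117 RPKM in WT-NS and 162, 154, 195 and 157 in WT-ST, and 71.9, 91.2, 81.9 and 81.4 in Cko-NS and 208, 201, 194 and 131 in Cko-ST. The groups did not overlap, and the rise was 0.56 (SE 0.16, adjusted p = 0.0302) in WT and 1.14 (SE 0.16, adjusted p = 0.000142) in Cko. The WT call was lost without WT-NS 2, WT-NS 4, WT-ST 1 or WT-ST 3 (adjusted p = 0.0977, 0.0529, 0.0571 and 0.0971). Vasp, which extends filaments, rose from 115 to 209.6 RPKM in WT (adjusted p = 0.00169) and from 121 to 204 in Cko (adjusted p = 0.00410). Tln1, talin 1, averaged 1.76 and 2.63 RPKM in WT and 2.13 and 1.67 in Cko and passed in neither. Zyx, zyxin, stayed under the limit for testing, at 0.101 to 0.640 RPKM in WT-NS, 0.389 to 1.21 in WT-ST, 0.500 to 0.835 in Cko-NS and 0.490 to 1.39 in Cko-ST.

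Msn had the lowest p of the 45 genes in both genotypes, at rank 3 in WT and rank 2 in Cko among all 9838 genes. Moesin, its product, ties filaments to the plasma membrane and is the main member of its family in endothelium. Msn (chrX:96096042-96168552) read 314, 291, 331 and 288 RPKM in WT-NS and 1186, 1253, 1512 and 1099 in WT-ST, and 348, 383, 313 and 390.1 in Cko-NS and 1398, 1611, 1007 and 1474 in Cko-ST. Every stroke library stood far above every non-stroke library of its genotype. The log2 fold changes were 2.03 (SE 0.15, adjusted p = 2.51e-07) and 1.92 (SE 0.15, adjusted p = 7.95e-07). The other 2 family members did not pass. Rdx, radixin, read 354, 348, 355 and 256 RPKM in WT-NS and 271, 295, 260.0 and 247 in WT-ST, and 178, 300.4, 217 and 262 in Cko-NS and 212, 224, 195 and 226 in Cko-ST, overlapping in both genotypes (adjusted p = 0.283 and 0.622). Under quantile normalization Rdx was called lower in WT, by -0.50 (adjusted p = 0.0340). Ezr, ezrin, averaged 2.48 and 3.44 RPKM in WT and 4.81 and 3.08 in Cko.

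All 5 genes of the intermediate filament and tubulin group rose in both genotypes. Vim, vimentin, read 142, 158, 177 and 227 RPKM in WT-NS and 380.2, 304, 338 and 344 in WT-ST, and 121, 199.8, 211 and 221 in Cko-NS and 315, 389, 297 and 498 in Cko-ST. These did not overlap, with rises of 0.97 (SE 0.21, adjusted p = 0.00387) and 1.00 (SE 0.21, adjusted p = 0.00301). Tuba1c, an alpha-tubulin (chr15:99029891-99038110), read 11.2, 9.95, 18.0 and 7.24 RPKM in WT-NS and 71.4, 45.1, 79.0 and 66.5 in WT-ST, and 15.7, 23.4, 17.5 and 16.7 in Cko-NS and 81.4, 111, 85.6 and 64.6 in Cko-ST. It rose by 2.44 (SE 0.25, adjusted p = 5.12e-06) and 2.15 (SE 0.25, adjusted p = 2.22e-05). Tubb6, a beta-tubulin, read 0.243, 1.16, 0.0770 and 0.394 RPKM in WT-NS and 10.4, 13.4, 12.6 and 15.3 in WT-ST, and 1.03, 3.04, 0.993 and 3.04 in Cko-NS and 13.4, 24.6, 12.0 and 13.0 in Cko-ST. Both genotypes showed a wide gap between the groups. On the log2(RPKM + 1) scale it rose by 3.29 (SE 0.32, adjusted p = 3.09e-06) and 2.50 (SE 0.32, adjusted p = 6.02e-05). By the same estimate as for Myl9, its WT-NS values rest on 1 to 14 reads. Over the alternatives the changes ran from 1.71 to 4.87 and from 1.54 to 3.02. Tuba1b rose by 1.09 and 1.16 and Tubb5 by 0.63 and 0.70, the WT-NS and WT-ST libraries of Tuba1b overlapping. The Tubb5 call in WT was lost without any of WT-NS 2, 3 or 4 or WT-ST 1 or 4 (adjusted p from 0.0512 to 0.0725). Tubulin genes are alike in their coding sequence, so reads may be split among them in ways the deposited values do not show.

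Of the small GTPases and their effector, Rhoc, which drives contraction, rose from 173 to 402 RPKM in WT (adjusted p = 0.00292) and from 234 to 408 in Cko (adjusted p = 0.0390, lost without Cko-NS 1, Cko-NS 2, Cko-ST 1, Cko-ST 2 or Cko-ST 3, with adjusted p from 0.0614 to 0.106). Rhoa, the broadly expressed relative, measured 454 and 591 RPKM in WT and 526 and 625 in Cko and did not pass (adjusted p = 0.0917 and 0.235). Cdc42ep3, an effector of the GTPase Cdc42 that binds septins, measured 80.2 and 99.7 RPKM in WT and 105 and 109 in Cko.

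The 6 genes that rose in WT but did not pass in Cko were Actn4, Cap1, Capzb, Flna, Myl6 and Tagln2. The interaction of genotype and stroke tests whether the change differed, and it was called for none of the 45 genes and for 0% of the 9838 genes (limma). At an unadjusted p under 0.05 were 4 of the 45, Tagln2, Arpc1b, Capg and Vcl, and 691 of all 9838 genes. The lowest p among the 45 belonged to Capg, with a difference of log2 fold changes (Cko minus WT) of -1.04 (SE 0.39), to Vcl, with 0.58 (SE 0.23), and to Tagln2, with -1.03 (SE 0.44), at an adjusted p of 0.681 each. Over the alternatives the adjusted p of these 3 genes ran from 0.449 to 0.910.

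A wider list of 95 other cytoskeletal genes covered regulators and partners outside the 47. Of its 87 genes tested, 18 rose and 4 fell in WT, against 8.46% and 4.84% of all genes, with a median log2 fold change of 0.34. In Cko 17 rose and 6 fell, against 6.44% and 8.71% of all genes, with a median of 0.31. Falls were thus no more frequent in this list than over all genes. Among upstream regulators Rnd1, a GTPase that opposes RhoA, rose from 1.44 to 32.3 RPKM in WT (log2 fold change 3.67, SE 0.37, adjusted p = 3.90e-06) and from 1.73 to 34.7 in Cko (3.73, SE 0.37, adjusted p = 5.24e-06). Rnd3, its relative, rose by 1.55 and 1.34, and Cdc42 by 0.53 and 0.65. Srf, the factor that binds the CArG box, rose from 1.16 to 3.57 RPKM in WT (adjusted p = 0.0172) and from 2.10 to 4.84 in Cko (adjusted p = 0.0283). Mylk, the kinase that switches on myosin II through its light chains, fell by 1.35 in WT, from 37.8 to 14.2 RPKM, and by 0.93 in Cko, from 33.7 to 17.5.

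In actin turnover and bundling, Wdr1, a cofactor of cofilin, rose by 1.14 in WT (adjusted p = 0.000200) and 1.03 in Cko, and Pls3, a bundler, by 1.03 and 0.73. Marcks, a membrane-bound filament binder, fell by 1.18 and 0.96. Dstn, a relative of cofilin, rose from 67.1 to 96.8 RPKM in WT and from 78.4 to 115.5 in Cko. Fscn1, fascin, rose in Cko from 1.84 to 7.74 RPKM and measured 2.72 and 7.43 in WT (adjusted p = 0.0863). At adhesions and stress fibres, Cnn3 (1.06), Filip1l (1.37) and Pdlim7 (1.09) rose in WT, and Tes (0.88) and Lims1 (0.79) in Cko, while Cnn2 (0.88 and 1.01) and Pdlim5 (0.73 and 0.85) rose in both. Tns1, tensin 1, fell by 0.88 in Cko, from 11.7 to 6.02 RPKM. Among further tubulins and their partners, Tubb2a rose by 1.24 and 1.00 and Tuba1a by 1.30 and 1.08, Tubb4b rose by 2.02 in WT (adjusted p = 0.0673 in Cko), and Stmn1, which takes up tubulin dimers, fell by 1.81 and 2.15. Of other myosins, Myo1c rose in WT (1.26), and of nucleators and branching factors Fmnl2, a formin, rose in both (0.79 and 0.76).

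Between genotypes, no cytoskeleton gene of the 45 was called in either hemisphere. On the non-stroke side 0.315% of all genes were called, 0.224% higher and 0.0915% lower in Cko-NS (limma). At an unadjusted p under 0.05 were 9 of the 45 and 1405 of all 9838 genes. In 3 genes, Tagln2, Capzb and Capg, all Cko-NS libraries lay above all WT-NS libraries and in 2, Vcl and Tubb5, below, against 6.66% and 2.04% of all genes. Capg, a capping protein that is also abundant in macrophages, had the lowest p. It read 6.60, 6.48, 10.1 and 5.36 RPKM in WT-NS and 20.6, 11.1, 14.4 and 22.7 in Cko-NS, and 15.9, 12.0, 9.88 and 12.1 in WT-ST and 9.29, 17.1, 11.3 and 17.1 in Cko-ST. The non-stroke groups were apart and the stroke groups overlapped. Its log2 difference was 1.14 (SE 0.27, adjusted p = 0.0656), and 0.0433 when genes under a mean of 5 RPKM were left out of the test. Next were Tubb6, at 1.01 (SE 0.32, adjusted p = 0.165), and Arpc1b, at 0.73 (SE 0.24, adjusted p = 0.167), both from the libraries given above. The leukocyte marker sum was 3.97 to 13.5 RPKM in WT-NS and 11.2 to 89.0 in Cko-NS, and the microglia and macrophage sum 17.0 to 119.6 and 22.2 to 50.9. The endothelial marker sum was 1237 to 1508 RPKM in WT-NS and 1697 to 1956 in Cko-NS, without overlap. Of the 87 genes of the wider list, Arhgap29, which turns off RhoA, was the 1 called between genotypes on the non-stroke side. It averaged 664 RPKM in WT-NS and 455 in Cko-NS, without overlap (log2 difference -0.55, SE 0.11, adjusted p = 0.0427). The Arhgap29 call was lost without any single library of these groups, and without Cko-NS 4 and Cko-ST 3. It was also lost with the replicate number as a block, with a prior without trend and in a fit of those groups only. The part of the marker sums in these differences was not tested, and 1 of the 4 Cko-NS libraries was male by its RNA.

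On the stroke side none of 9838 genes was called, which is 0% (limma). At an unadjusted p under 0.05 were 0 of the 45 and 476 of all 9838 genes. Rdx lay lower in all 4 Cko-ST than in all 4 WT-ST libraries, and Pdlim1 lay higher, against 1.86% and 1.46% of all genes. The lowest p among the 45 belonged to Rdx (-0.32, SE 0.16), Arpc5 (0.38, SE 0.20) and Actr3 (0.30, SE 0.18), at an adjusted p of 0.994 each. The 95% interval of the genotype difference on the stroke side was -0.35 to 0.27 for Actb, -0.21 to 0.42 for Msn and -0.38 to 0.41 for Myh9.

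In the beta-catenin experiment Ctnnb1 itself averaged 221 ± 45.5 RPKM (SD, n = 3) in Bcat and 305 ± 6.92 (SD, n = 2) in the control, and gene-level values do not show whether exon 3 was removed. None of 11252 genes was called, which is 0% (limma). At an unadjusted p under 0.05 were 3 of the 46 cytoskeleton genes and 590 of all 11252 genes. With 3 and 2 libraries the design could have missed changes. In simulated data of this comparison over 10884 genes, 1.47%, 27.3% and 78.8% of changes of 1, 2 and 4 on the log2 scale were recovered. These rates hold for genes of higher mean level, the only ones that were changed there. The median log2 fold change was -0.07 over the 46 genes and -0.06 over all genes. All Bcat libraries lay above both control libraries in 2 genes, Tagln2 and Vasp, and below in 7, Myl6, Actn4, Tmsb4x, Tmsb10, Rdx, Tuba1b and Cfl1, against 8.66% and 11.7% of all genes. Tmsb10 read 14.0, 6.29 and 7.04 RPKM in Bcat and 32.7 and 21.7 in the control, a log2 difference of -1.53 (SE 0.43, adjusted p = 0.864). Rdx read 46.4, 57.0 and 56.9 RPKM against 104 and 76.1 (-0.73, SE 0.26, adjusted p = 0.911), and Cfl1 read 57.2, 59.5 and 65.9 against 92.1 and 88.3 (-0.56, SE 0.23, adjusted p = 0.917). Over the alternatives the adjusted p of these 3 genes was at least 0.604.

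**Figure D5:**
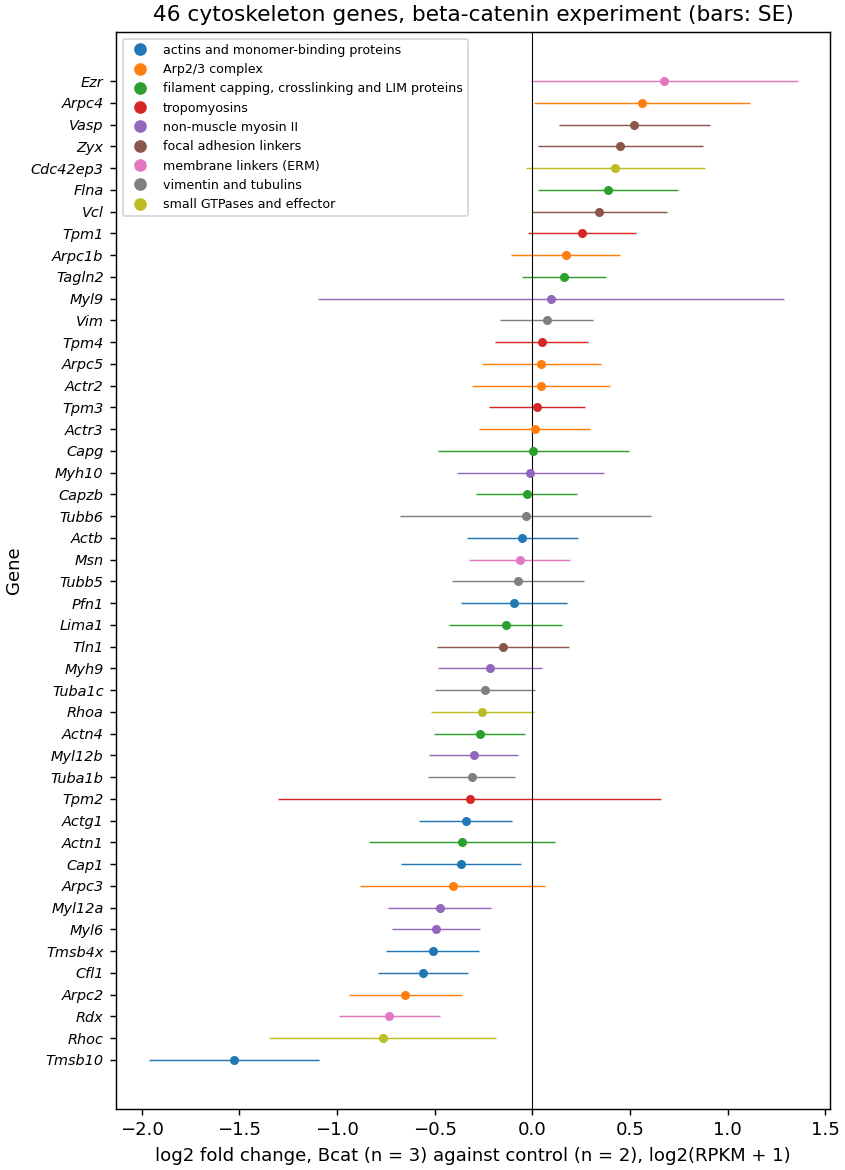
Log2 fold change, on log2(RPKM + 1), of 46 cytoskeleton genes (rows, coloured by role and ordered by value) between the 3 Bcat and 2 control libraries, with SE bars. Values spread around 0, from -1.53 for Tmsb10 to 0.68 for Ezr, and none passed the threshold.

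Leading genes of the stroke comparison were read in these libraries too. Actb read 615, 812 and 428 RPKM against 643 and 597, Msn 359, 235 and 227 against 298 and 263, and Myh9 54.5, 47.6 and 37.8 against 53.6 and 53.8. Actg1 read 204, 194 and 161 RPKM against 277 and 199, Tmsb4x 576, 518 and 587 against 657 and 967, Vim 257, 287 and 292 against 323 and 216, and Flna 15.0, 18.8 and 27.4 against 15.0 and 14.8. The ranges overlapped in all of these except Tmsb4x. Since these libraries were made from whole transcripts, RPKM can be ranked between genes per length: control means were 812 for Tmsb4x, 620.1 for Actb, 420.4 for Myl12b, 281 for Msn, 269.6 for Vim and 253 for Myl6, and of the tropomyosins 236 for Tpm4, 56.6 for Tpm1, 51.5 for Tpm3 and 3.84 for Tpm2. Actb took 0.142 to 0.286% of the summed RPKM in Bcat and 0.210 to 0.227% in the control, and all 47 genes took 1.40 to 1.72% and 1.81 to 1.87%. The red cell markers summed to 24453, 15487 and 30173 RPKM in Bcat 1 to 3 and to 13315 and 14110.1 in the control, and their part in these shares was not tested. Myl9 varied widely, at 0.181, 12.2 and 36.8 RPKM in Bcat and 4.87 and 9.51 in the control, as Tpm2 did at 0, 2.63 and 9.13 against 1.36 and 6.32. The mural marker sum had the same order over Bcat 1 to 3, at 35.4, 70.6 and 112 RPKM, against 36.5 and 36.4 in the control. Its markers differed in direction between the group means. Acta2 averaged 16.6 RPKM in Bcat and 2.77 in the control, whereas Kcnj8 averaged 0.544 and 1.68 and Higd1b 0.641 and 1.09. The part of mural RNA in the Myl9 and Tpm2 values was not tested.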

How the data were processed

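The values are RPKM per gene, deposited by the authors in 1 table of all libraries. Per the submitters' processing notes, the authors name edgeR and the build mm10, without their role, and how reads matching several genes were counted is not given in the sources used here. Of the columns, 8 match none of the samples and were not used, and 54 entries that share a gene name were left out. Values were taken as log2(RPKM + 1) without rescaling, and genes with a mean of at least 1 RPKM in an experiment were tested with limma 3.58.1 in R 4.3.3, with a trended prior and Benjamini-Hochberg adjustment over all genes tested, at a threshold of 0.05. One fit covered the 4 stroke groups and another the beta-catenin groups. RPKM do not give total reads, so depth is known only relative to other libraries. Whether the libraries of a group are separate animals is not in the labels, and the p-values therefore reflect only library-to-library spread, which may be technical.

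Members and gene lists were chosen with earlier results of these data known. Values in every library were to be given for Actb, Actg1, Tmsb4x, Tmsb10, Myh9, Vim and Flna, for the 10 lowest p in each stroke comparison and for the 3 lowest in each other comparison. From the wider list, up to 4 genes per group with the lowest p past the threshold were named. Pdlim1 and Myl9 were given in full, and Tns1, Arhgap29 and some genes of the wider list in the other genotype were named, after their values were seen. The fits were checked on simulated data: of changes of 1, 2 and 4 on the log2 scale, 42.6%, 86.4% and 100% were recovered for WT over 9631 genes, and 42.6%, 87.9% and 100% for Cko over 9623. Of the unchanged genes, 10 were called in WT and 9 in Cko. Changes were put into 68, 66 and 66 genes, fewer than were called in the data, and only into genes of higher mean level. The rates therefore do not cover low genes such as Myl9 and Flna. Alternatives were other pseudocounts, filters and scalings, a prior without trend, a fit of each pair of groups, the replicate number as a block, and leaving out libraries. Deviations of the same-numbered Cko-NS and Cko-ST libraries correlated at 0.100 to 0.214 in all 4 pairs, which met the rule for pairing (r over 0.1). In WT the range was 0.0117 to 0.130, which did not. Each Cko-ST library correlated best with the Cko-NS library of its number, and the Cko libraries male by their RNA, Cko-NS 4 and Cko-ST 4, shared a number too. The main Cko tests did not use this pairing. With the replicate number as a block, 24 cytoskeleton genes rose and 1 fell in Cko.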

Additional observations from a re-analysis of the deposited data

Results flagged for a closer look

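On the scale of log2(RPKM + 1), 1 library stood apart from the other 3 in 17 of 180 groups of 4 libraries (9.44%). Its gap took more of the group's range on that scale than Dixon's 95% critical value, which chance gives in about 1 in 20 groups. On the non-stroke side of WT these were Actb in WT-NS 1 (8658 RPKM, others 7163 to 7375), Tagln2 in WT-NS 4 (24.7, others 76.8 to 81.6), Rdx in WT-NS 4 (256, others 348 to 355) and Cdc42ep3 in WT-NS 3 (103, others 71.4 to 73.5). In WT-ST they were Tmsb4x (2328 RPKM, others 3029.9 to 3145) and Tln1 (5.31, others 1.62 to 1.90) in library 4 and Tpm4 in library 3 (193, others 159 to 164).

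In Cko-NS, library 1 was low in Actg1 (319 RPKM, others 441 to 464) and Vim (121, others 199.8 to 221), and library 2 was low in Flna (2.26, others 4.28 to 4.79) and high in Pdlim1 (4.83, others 1.28 to 1.66). In Cko-ST, library 2 was high in Tmsb4x (3614 RPKM, others 2957 to 3050.3), Vasp (250.2, others 186 to 189.8) and Tubb6 (24.6, others 12.0 to 13.4). Low values there were Actr3 in library 3 (209.6 RPKM, others 262 to 274), Myh10 in library 1 (1.22, others 2.11 to 2.16) and Vcl in library 4 (131, others 194 to 208).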

How the results depend on the processing

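Over 19 alternatives, 22 to 30 cytoskeleton genes rose in WT and 19 to 25 in Cko, with medians of 0.64 to 0.83 and 0.47 to 0.70. Over all genes tested, 650 to 909 rose in WT and 449 to 868 in Cko. Of the cytoskeleton calls, 20 of 29 in WT and 19 of 24 in Cko held in every setting. Leaving out 1 library gave 22 to 28 calls in WT, 21 to 26 in Cko and 0 in the other comparisons, and over all genes 993 to 1113 in WT and 1044 to 1513 in Cko. With the replicate number as a block there were 29 calls in WT (1460 over all genes) and 25 in Cko (1576). The block added Tmsb10 (adjusted p = 0.0487) and Arpc3 (0.0191) in WT and Myl6 in Cko, and lost Capzb (0.0602) and Actn4 (0.0558) in WT. It gave 0 in the genotype, interaction and beta-catenin comparisons, with 27 genes in all between Cko-NS and WT-NS. Rescaling to an equal RPKM sum without the 47 genes gave 24 rises in WT, without Vcl (0.0748), Tubb5 (0.0553), Capzb (0.0732), Actn4 (just above 0.05) and Tagln2 (0.0624), and 22 in Cko, without Actr2 (0.0583).

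Between Cko-NS and WT-NS, 31 genes were called, but 19 with no filter, 84 with a minimum mean of 5 RPKM (1 of them a cytoskeleton gene, Capg), 12 without the trended prior and 2 in a fit of those groups only. Leaving out 1 library gave 1 to 41, with 11 without WT-NS 1, 1 without WT-NS 4, 17 without Cko-NS 1 and 9 without Cko-NS 3. Between Cko-ST and WT-ST it gave 0 to 8, with 8 without WT-ST 3 and 3 without Cko-ST 3. The cause was not tested.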
